A study of Rattus norvegicus with 15 samples.

Results

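The genes described here are 64 members of the TGF-beta, BMP, Notch and hedgehog pathways in RNA-seq of the rat adrenal medulla. Members were chosen by gene symbol, as every gene whose name matched a fixed pattern of ligands, receptors, transducers, inhibitors and targets of these pathways, among the 8621 genes with a row in the deposited tables. They are 20 TGF-beta and activin genes, 23 BMP genes, 15 Notch genes and 6 hedgehog genes. Another 61 of the 125 pathway genes looked up by symbol had no row and were not analysed here.

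The samples were macrodissected adrenal medullas of Sprague-Dawley rats, 5 per group. WT rats were 7 to 9.5 months old. MENX rats carry a germline frameshift mutation in *Cdkn1b*, which encodes the cell cycle inhibitor p27, and were taken with medullary hyperplasia (HYP) at 4 to 5 months or with pheochromocytoma (PCC), a tumor of chromaffin cells, at 7 to 9.5 months. The HYP rats were thus younger than the WT rats, so that age and genotype cannot be told apart in HYP vs. WT, while PCC and WT are of the same age range. They were also younger than the PCC rats, so that age and the step from hyperplasia to tumor cannot be told apart in PCC vs. HYP. The mutation arose in a Sprague-Dawley colony and is present in every cell of a homozygous MENX rat, and the PCC group pools smaller and larger tumors that the labels do not separate. The study's methods give 5 animals per group.

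Values are given as CPM, a count scaled to a library of fixed size, normalised over all 15 samples, in the order of replicates 1 to 5. The depth ran from 16315018 to 23831269 reads assigned to genes. Each of the 3 tables lists only genes that the authors had called in that pair of groups, so 38 members have values in all 15 samples and 26 in 10, and a count of called members is not independent evidence of a change. *Cdkn1b* itself had 44.6 to 72.1 CPM in WT, 82.5 to 124 in HYP and 108 to 173 in PCC. Its level does not check the genotype labels, since the mutation is a frameshift and not a deletion of the gene.

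Cell types other than chromaffin cells contributed to these libraries, in shares that moved with the groups. Of 16 adrenal cortex markers 12 had a row, and the 9 with values in all samples summed to 26587 to 53921 CPM in WT, 12388 to 33148 in HYP and 869 to 14158 in PCC. The 10 of 16 chromaffin markers with values in all samples, among them *Th* and *Dbh*, summed to 1966 to 9228 CPM in WT, 10920 to 15242 in HYP and 17767 to 37126 in PCC. For 10 of 14 sustentacular and Schwann markers the sums were 86.9 to 262 in WT, 376 to 510 in HYP and 524 to 794 in PCC. For 7 of 14 endothelial markers they were 542 to 674, 368 to 482 and 224 to 434, and for 6 of 12 fibroblast and capsule markers 42.5 to 78.9, 115 to 157 and 76.3 to 236. Of 12 pericyte and smooth muscle markers 7 had a row, and the 3 with values in all samples (*Rgs5*, *Acta2* and *Kcnj8*) summed to 44.7 to 85.4, 113 to 157 and 525 to 2229. These 3 did not move together. In PCC vs. WT *Rgs5* rose by 5.51 on the log2 scale and *Acta2* by 1.65, whereas *Kcnj8* had a log2 fold change of -1.04 (adjusted *p* = 0.0403). For the lists above every HYP sample lay outside the WT range, except HYP replicate 3 for the cortex markers (33148 CPM). No marker with values in all samples was at 0 everywhere. Of 14 macrophage and leukocyte markers 2 had values, summing to 32.5 to 39.8 CPM in WT, 50.6 to 55.6 in HYP and 10.4 to 61.0 in PCC. WT replicate 5 stood apart with the lowest chromaffin sum, 1966 CPM against 5640 to 9228 in the other WT samples. Fewer cells of a type and less RNA per cell cannot be told apart in such bulk samples, and the part of these shifts in the results below was not tested.

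**Figure D1:**
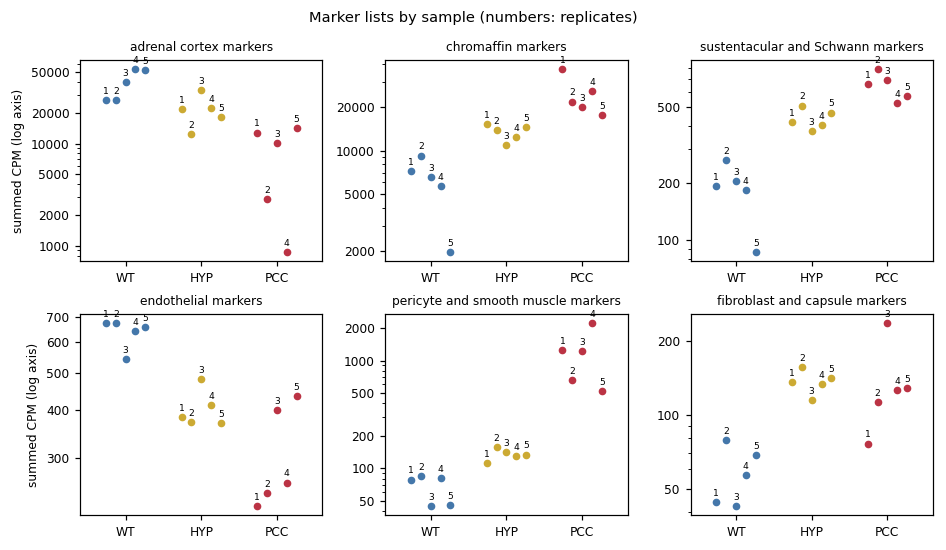
Summed CPM (log axis) of the listed markers of 6 cell types in each sample, by group, with replicate numbers beside the points. Cortex sums fall from WT to PCC while chromaffin sums rise, and WT replicate 5 has the lowest chromaffin sum at 1966 CPM.

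TGF-beta and activin ligands bind pairs of type I and type II receptor kinases that phosphorylate Smad2 and Smad3, whereas BMPs act through Smad1, Smad5 and Smad9 and induce the *Id* genes. Smad6, Smad7 and the ubiquitin ligases of the Smurf family restrain both branches, and secreted antagonists such as noggin and follistatin trap the ligands. Notch receptors are cleaved after contact with Jagged or Delta-like ligands on a neighbouring cell, and the released fragment joins the DNA-binding protein RBPJ and Mastermind co-activators at targets of the Hes and Hey families. Hedgehog ligands lift the block that Patched places on Smoothened, which activates the Gli transcription factors. These pathways act in the neural crest and its sympathoadrenal derivatives during development.

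In PCC vs. WT, 43 of the 50 members that could be tested were called at an adjusted *p* under 0.05, 25 of them higher and 18 lower in PCC. This was 86.0% of the tested members beside 85.2% of all 7001 genes tested in that table, with 46.7% of all genes higher and 38.5% lower. In HYP vs. WT, 27 of 34 tested members were called, 14 higher and 13 lower, or 79.4% beside 72.1% of 4108 genes. In PCC vs. HYP, 13 of 23 were called, 8 higher and 5 lower, or 56.5% beside 44.4% of 3148 genes. The groups did not overlap for 28 members in PCC vs. WT, 19 in HYP vs. WT and 10 in PCC vs. HYP, while 64.7%, 54.8% and 54.3% of all tested genes did not overlap. The median log2 fold change of the tested members was 0.80 beside 0.44 for all genes in PCC vs. WT, -0.62 beside -0.37 in HYP vs. WT and 0.83 beside 0.43 in PCC vs. HYP. The shares called were thus near those of all listed genes, and what follows is about which members moved and in which direction.

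Scaling moved the split of higher and lower calls. With the recovered totals of counted reads in place of TMM, the median log2 fold change of all genes rose by 0.29 in PCC vs. WT, 0.19 in HYP vs. WT and 0.22 in PCC vs. HYP. The calls were then 28 higher and 11 lower, 14 higher and 7 lower, and 10 higher and 4 lower. With the total of the listed counts the shifts were 0.50, 0.46 and 0.15 and the calls 29 and 11, 15 and 5, and 9 and 3. The authors' size factors moved the medians less, by -0.055, -0.042 and 0.107. With them, 69 of 74 log2 fold changes of named members kept their call or lack of one. No named member changed direction under any of these scalings, although some calls of lower members were lost, as given with each pathway.

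Among the 38 members with values in all samples, 32 had a HYP mean between the WT and PCC means, 16 rising and 16 falling, or 84.2% beside 85.1% of the 5492 genes with all values. The exceptions were *Bambi*, *Boc*, *Dlk1*, *Id1*, *Id2* and *Inhbb*. Of the 51 members called in at least 1 comparison, none was called in opposite directions in different comparisons. *Bmp7*, *Gdf5*, *Mfng* and *Tgfb3* were called in all 3. These comparisons share samples, so their agreement is not independent.

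**Figure D2:**
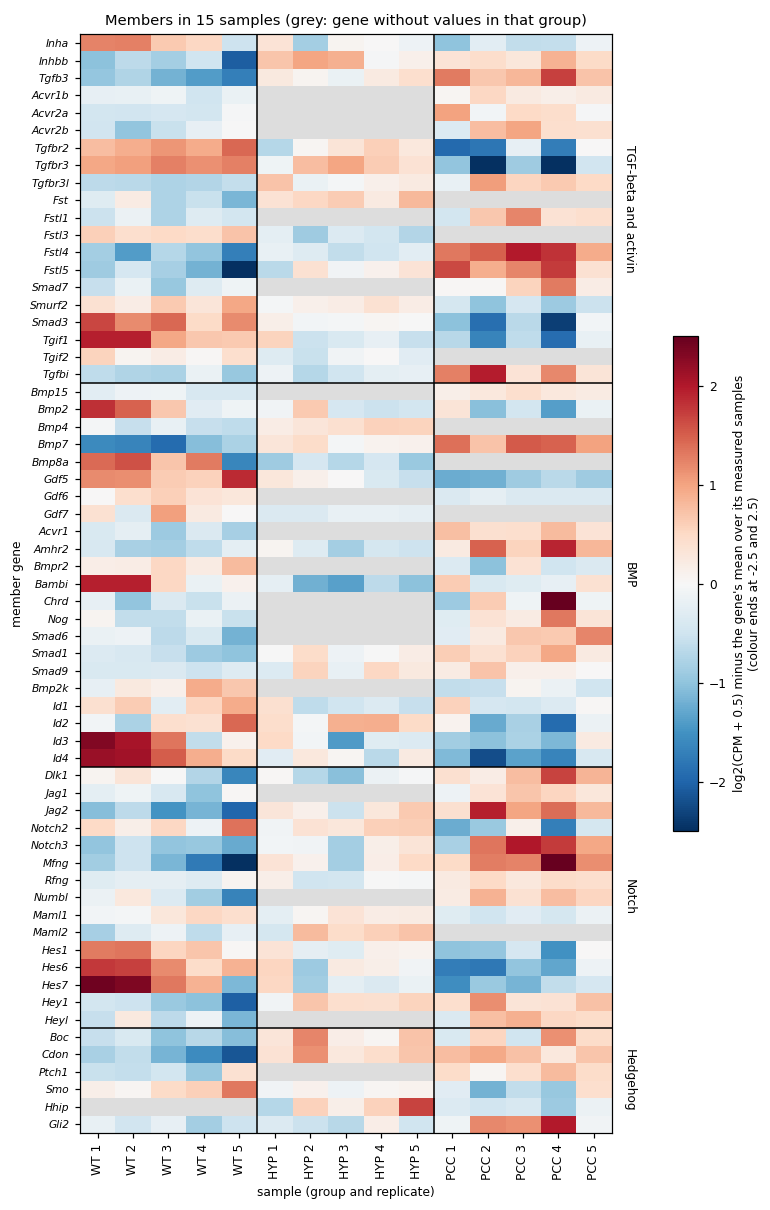
Level of the members (rows, by pathway and role) in each of the 15 samples (columns), as log2(CPM + 0.5) minus the gene's mean over its measured samples. Grey cells have no values because the gene is listed for 1 pair of groups. Most rows run in steps from WT through HYP to PCC, and *Bambi*, *Id1* and *Inhbb* do not.

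Compared per length, as FPKM, the order of the members changed with the group. *Dlk1*, which encodes an imprinted Delta-like membrane protein, was the highest in all 3 groups, with a mean of 793 ± 398 FPKM (SD, n = 5) in WT, 804 ± 239.6 in HYP and 2022 ± 975 in PCC. In WT it was followed by *Id3* (285 ± 216), *Hes6* (151 ± 66.4), *Id2* (139 ± 61.7), *Id1* (78.0 ± 17.1), *Tgfbr3* (64.2 ± 6.34) and *Tgfbr2* (51.3 ± 4.39), where the intervals of 1 SD around the means of neighbours overlapped from *Id3* to *Tgfbr3*. In PCC the next were *Id2* (79.1 ± 35.2), *Id3* (78.6 ± 36.1), *Id1* (62.9 ± 14.2), *Mfng* (50.1 ± 33.0), *Fstl5* (48.4 ± 16.3), *Tgfb3* (47.5 ± 15.9) and *Smad1* (45.2 ± 10.2), and the intervals of neighbours overlapped in each case. *Hes6*, *Tgfbr3* and *Tgfbr2* were no longer among the 9 highest in PCC.

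On the TGF-beta side the ligand *Tgfb3* rose in steps while the receptors *Tgfbr2* and *Tgfbr3* and the transducer *Smad3* fell. *Tgfb3* had 26.8, 31.2, 23.0, 19.7 and 15.9 CPM in WT, 62.5, 55.5, 46.8, 62.3 and 71.1 in HYP, and 132, 84.6, 94.4, 173 and 86.9 in PCC, so that no group overlapped another. Its log2 fold change was 1.30 ± 0.19 (SE; adjusted *p* = 0.00143) in HYP vs. WT, 2.24 ± 0.27 (adjusted *p* = 2.55e-04) in PCC vs. WT and 0.83 ± 0.22 (adjusted *p* = 0.0401) in PCC vs. HYP. *Inhbb*, which encodes the beta B subunit of activins and inhibins, rose 2.87-fold in HYP (adjusted *p* = 0.00672) and 2.69-fold in PCC (adjusted *p* = 0.00441) over WT, from 3.20 to 10.4 CPM in WT to 14.5 to 30.1 in HYP and 18.1 to 27.5 in PCC. *Inha*, the alpha subunit that makes inhibins, fell 2.49-fold in PCC vs. WT (adjusted *p* = 0.0117), with 28.6 to 100.5 CPM in WT and 20.4 to 37.9 in PCC. The WT values of *Inha* spanned a wide range because replicate 5 had 28.6 CPM and the other WT samples 59.1 to 100.5. In HYP vs. WT its log2 fold change of -0.88 ± 0.32 was not called (adjusted *p* = 0.0804), and was called without WT replicate 5 (adjusted *p* = 0.0067).

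The type II receptor *Tgfbr2* had 131, 145, 164, 147 and 207 CPM in WT, 46.2, 79.1, 96.3, 115 and 92.2 in HYP, and 19.6, 21.6, 66.3, 22.7 and 76.9 in PCC. All HYP and PCC samples were below all WT samples, and PCC replicates 3 and 5 were the 2 highest of the tumors. *Tgfbr2* fell with log2 fold changes of -0.94 ± 0.23 in HYP vs. WT (adjusted *p* = 0.015) and -1.97 ± 0.39 in PCC vs. WT (adjusted *p* = 0.00301). *Tgfbr3*, the betaglycan co-receptor that presents TGF-beta and binds inhibin, had 377, 395, 468, 431 and 465 CPM in WT, 179.8, 333, 385, 303 and 249 in HYP, and 97.7, 29.7, 104, 19.8 and 138 in PCC. It fell by 2.49 ± 0.46 on the log2 scale in PCC vs. WT (adjusted *p* = 0.00201) and by 1.98 ± 0.49 in PCC vs. HYP (adjusted *p* = 0.0313), and the difference of -0.61 ± 0.20 in HYP vs. WT was not called (adjusted *p* = 0.0527, or 0.0409 without HYP replicate 3). PCC replicates 2 and 4, the lowest for *Tgfbr3*, were also the lowest for the cortex markers, at 2842 and 869 CPM beside 10194 to 14158 in the other tumors. For *Tgfbr2* the lowest tumor was PCC replicate 1, with a cortex sum of 12820 CPM. The part of cortex cells in these results was not tested. Unlike *Tgfbr2* and *Tgfbr3*, the activin receptors went up in PCC vs. WT. *Acvr1b* (1.36-fold), *Acvr2a* (1.72-fold) and *Acvr2b* (2.26-fold), the type I and type II receptor kinases of activin, rose with adjusted *p* of 0.0396, 0.0171 and 0.0272. *Tgfbr3l*, a betaglycan-like co-receptor, rose 1.84-fold in HYP (adjusted *p* = 0.0111) and 2.45-fold in PCC (adjusted *p* = 0.00208), with WT between 5.91 and 6.76 CPM and no other sample below 9.16.

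*Smad3*, the receptor Smad of this branch, had 49.97, 35.6, 42.8, 21.8 and 35.6 CPM in WT, 17.1, 14.7, 14.8, 16.0 and 15.4 in HYP, and 7.34, 3.83, 9.45, 2.601 and 14.7 in PCC. The HYP samples lay close together, below every WT sample. *Smad3* fell by 1.31 ± 0.20 on the log2 scale in HYP vs. WT (adjusted *p* = 0.00174) and by 2.33 ± 0.43 in PCC vs. WT (adjusted *p* = 0.00196), and -1.12 ± 0.40 in PCC vs. HYP was not called (adjusted *p* = 0.109, or 0.0222 without PCC replicate 5). *Tgif1*, a homeobox co-repressor that binds Smads, had 73.05, 72.98, 36.8, 29.99 and 29.5 CPM in WT, 27.4, 12.6, 13.99, 15.9 and 12.2 in HYP, and 11.3, 5.58, 11.7, 4.59 and 16.2 in PCC, and the highest HYP sample stayed below the lowest WT sample. It fell 3.08-fold in HYP (adjusted *p* = 0.00683) and 5.12-fold in PCC (adjusted *p* = 0.0017) relative to WT. Its paralog *Tgif2*, at 4.13 to 6.20 CPM in WT and 2.58 to 4.07 in HYP, was not called (adjusted *p* = 0.0715). The target *Tgfbi*, a matrix protein induced by TGF-beta, had 6.64, 6.04, 5.86, 9.33 and 5.26 CPM in WT, 9.64, 6.26, 7.35, 8.83 and 9.03 in HYP, and 26.0, 42.7, 13.4, 24.8 and 13.4 in PCC. WT and HYP overlapped and all tumors were above both, with log2 fold changes of 1.84 ± 0.35 over WT (adjusted *p* = 0.00239) and 1.45 ± 0.32 over HYP (adjusted *p* = 0.0218).

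The inhibitors of this branch, and the follistatin-like genes grouped with them, moved in both directions. *Fstl4*, a follistatin-like gene, had 0.529, 0.201, 0.633, 0.438 and 0.0711 CPM in WT, 1.14, 0.988, 0.709, 0.813 and 1.05 in HYP, and 4.15, 4.76, 6.83, 5.96 and 3.01 in PCC, from no more than 35 counts over the 5 WT samples. It rose by 3.63 ± 0.48 on the log2 scale over WT (adjusted *p* = 3.72e-04), the largest called change of a member, and by 2.28 ± 0.30 over HYP (adjusted *p* = 0.00269). *Fstl5*, another follistatin-like gene, had 36.9, 51.5, 38.2, 29.9 and 10.4 CPM in WT, 43.2, 89.9, 65.1, 74.4 and 87.9 in HYP, and 217, 129, 161, 232 and 89.8 in PCC. It rose 4.77-fold over WT in PCC (adjusted *p* = 0.00181) and 2.14-fold over HYP (adjusted *p* = 0.0358). In HYP vs. WT its 2.08-fold difference was not called (adjusted *p* = 0.0536), and was called without WT replicate 5 (adjusted *p* = 0.0215), WT replicate 2 (adjusted *p* = 0.0326) or HYP replicate 1 (adjusted *p* = 0.025). The activin antagonist *Fst* rose 2.52-fold in HYP (adjusted *p* = 0.0331), from 0.213 to 1.31 CPM to 1.34 to 2.25, while *Fstl3*, also an activin antagonist, fell 2.18-fold (adjusted *p* = 0.00115), from 39.7 to 49.1 CPM to 15.8 to 25.0. In PCC vs. WT, the follistatin-like *Fstl1* rose 1.95-fold (adjusted *p* = 0.0203), and the inhibitory Smad *Smad7* 1.87-fold (adjusted *p* = 0.0289), from 11.6, 15.5, 8.86, 14.02 and 16.2 CPM in WT to 18.04, 17.96, 26.2, 43.9 and 20.1 in PCC. *Smurf2*, a ubiquitin ligase for Smads and receptors, fell 2.297-fold in PCC vs. WT (adjusted *p* = 5.09e-04) and 1.88-fold in PCC vs. HYP (adjusted *p* = 0.0125), with 109 to 186 CPM in WT, 92.2 to 124 in HYP and 46.9 to 71.0 in PCC.

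Some of these calls were lost in fits that left out 1 library. In PCC vs. HYP the call of *Tgfb3* was lost in 8 of the 10 such fits (adjusted *p* 0.0559 to 0.115), all but those without PCC replicate 2 or 5, and that of *Tgfbr3* without PCC replicate 2 or 3 or HYP replicate 2, 3, 4 or 5 (0.0571 to 0.0831). The call of *Tgfbi* was lost without HYP replicate 2, 3 or 4 (0.0534 to 0.0688), and that of *Fstl5* in all fits but that without PCC replicate 5 (0.0527 to 0.102). In PCC vs. WT *Smad7* was lost without PCC replicate 3 or 4 or WT replicate 1, 3 or 4 (0.0525 to 0.0748), *Acvr2a* without PCC replicate 1 (0.0601), *Acvr2b* without PCC replicate 2 or 3 or WT replicate 1, 2 or 3 (0.0586 to 0.0721), *Acvr1b* without any 1 of 8 libraries, all but PCC replicates 1 and 4 (0.0555 to 0.108), and *Fstl1* without PCC replicate 3 or WT replicate 3 (0.0507 to 0.0565). In HYP vs. WT *Fst* was lost without HYP replicate 2 or 5 or WT replicate 1, 3 or 4 (0.0521 to 0.0854). Scaling to the recovered totals ended the calls of *Tgfbr2* in HYP vs. WT (adjusted *p* = 0.0619) and of *Inha* in PCC vs. WT (adjusted *p* = 0.065).

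**Figure D3:**
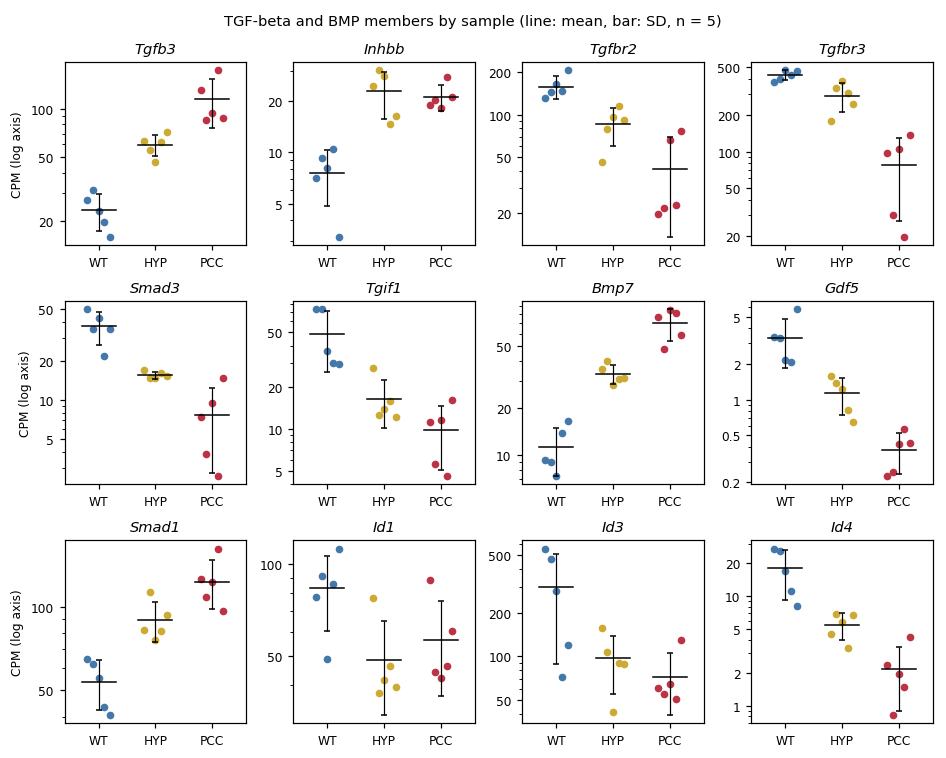
CPM (log axis) of 12 TGF-beta and BMP members in each sample, by group; points are samples, lines the means and bars the SD (n = 5). *Tgfb3*, *Bmp7* and *Smad1* step up from WT to PCC, and *Tgfbr2*, *Smad3*, *Tgif1*, *Gdf5* and *Id4* step down.

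BMP ligands diverged, with *Bmp7* up and *Gdf5* down in each comparison. *Bmp7* had 9.28, 8.97, 7.33, 13.7 and 16.5 CPM in WT, 35.8, 40.2, 28.1, 30.7 and 31.3 in HYP, and 76.5, 47.9, 84.7, 82.0 and 58.6 in PCC, with no overlap between any of the groups. Its log2 fold changes were 1.52 ± 0.23 in HYP vs. WT (adjusted *p* = 0.00149), 2.63 ± 0.24 in PCC vs. WT (adjusted *p* = 9.87e-05) and 0.97 ± 0.19 in PCC vs. HYP (adjusted *p* = 0.0134). *Gdf5*, a ligand of BMP receptors known from joint development, had 3.37, 3.32, 2.16, 2.07 and 5.76 CPM in WT, 1.58, 1.37, 1.23, 0.813 and 0.649 in HYP, and 0.228, 0.243, 0.421, 0.568 and 0.430 in PCC. WT replicate 5 was the highest, the groups did not overlap, and the log2 fold changes were -1.62 ± 0.35 (adjusted *p* = 0.00945), -3.13 ± 0.39 (adjusted *p* = 2.82e-04) and -1.66 ± 0.38 (adjusted *p* = 0.0245) in the same order. *Bmp4*, a ligand that patterns the sympathoadrenal lineage, rose 2.59-fold in HYP vs. WT (adjusted *p* = 0.0148) at a low level, from 0.213 to 0.577 CPM in WT to 0.761 to 1.16 in HYP. *Bmp8a* had 4.76, 5.44, 2.69, 4.38 and 0.142 CPM in WT and 0.5705, 0.988, 0.709, 0.987 and 0.549 in HYP. It fell by 2.25 ± 0.60 on the log2 scale (adjusted *p* = 0.0237), and the groups overlapped only through WT replicate 5. *Bmp2* spread over 21.5 to 93.9 CPM in WT and 9.70 to 32.8 in PCC. It fell 2.76-fold in PCC vs. WT (adjusted *p* = 0.0335) and its 2.17-fold difference in HYP vs. WT was not called (adjusted *p* = 0.087).

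BMP receptors and the receptor Smad *Smad1* rose in PCC apart from *Bmpr2*. *Acvr1*, a type I receptor that signals through the BMP Smads, rose 2.10-fold over WT (adjusted *p* = 0.00301), from 8.65 to 14.3 CPM to 21.3 to 29.5. *Amhr2*, the type II receptor of anti-Mullerian hormone, had 0.962, 0.604, 0.580, 0.751 and 1.14 CPM in WT, 1.52, 1.04, 0.580, 0.929 and 0.848 in HYP, and 1.78, 4.85, 2.34, 6.76 and 2.96 in PCC. All tumors were above all other samples, with a 4.58-fold rise over WT (adjusted *p* = 0.00237) and a 3.49-fold rise over HYP (adjusted *p* = 0.024). *Bmpr2*, the type II BMP receptor kinase, fell by 0.73 ± 0.22 on the log2 scale in PCC vs. WT (adjusted *p* = 0.0279), with 61.4, 61.6, 78.3, 62.4 and 94.5 CPM in WT and 42.8, 26.3, 70.4, 38.5 and 42.1 in PCC, where only replicate 3 reached the WT range. *Smad1* rose 1.61-fold in HYP (adjusted *p* = 0.0176) and 2.25-fold in PCC (adjusted *p* = 0.00155) over WT, from 40.6 to 64.5 CPM in WT to 75.8 to 113 in HYP and 96.2 to 162 in PCC.

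The BMP inhibitors moved in both directions. *Bambi*, a pseudoreceptor without a kinase domain, had 46.1, 46.4, 17.0, 10.3 and 12.7 CPM in WT, 9.95, 4.78, 4.26, 7.26 and 5.44 in HYP, and 18.3, 8.79, 9.36, 10.03 and 15.4 in PCC. It fell 4.36-fold in HYP vs. WT (adjusted *p* = 0.00853), and neither the 2.24-fold lower level in PCC vs. WT (adjusted *p* = 0.0826) nor the 1.84-fold higher level in PCC vs. HYP (adjusted *p* = 0.115) was called. *Smad6*, the inhibitory Smad of the BMP branch, had 4.71, 4.84, 3.22, 3.94 and 2.06 CPM in WT and 4.28, 6.26, 8.75, 8.70 and 13.1 in PCC and rose 2.11-fold (adjusted *p* = 0.0359).

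The 4 *Id* genes, which encode helix-loop-helix inhibitors of differentiation induced by BMP, were lower where they were called, and *Id2* was not called in either comparison it was listed for. *Id4* had 27.3, 26.1, 17.1, 11.1 and 8.11 CPM in WT, 4.56, 6.92, 5.87, 3.37 and 6.74 in HYP, and 2.37, 0.825, 1.96, 1.47 and 4.21 in PCC. Every WT sample was above every other sample, and *Id4* fell by 1.76 ± 0.35 on the log2 scale in HYP (adjusted *p* = 0.00598) and by 3.11 ± 0.49 in PCC (adjusted *p* = 8.91e-04) relative to WT. The PCC vs. HYP difference of -1.43 ± 0.41 was not called (adjusted *p* = 0.0543, or 0.0124 without PCC replicate 5). *Id3* had 557, 469, 281, 72.4 and 119.6 CPM in WT, 158, 106, 41.6, 89.7 and 88.2 in HYP, and 60.9, 54.6, 64.3, 51.1 and 129.8 in PCC. The WT samples spread over a wide range, and *Id3* fell 3.24-fold in HYP (adjusted *p* = 0.0423) and 4.35-fold in PCC (adjusted *p* = 0.0113). *Id1* had 77.9, 91.4, 48.8, 85.8 and 112 CPM in WT, 77.5, 37.9, 41.6, 46.5 and 39.4 in HYP, and 88.3, 44.1, 42.5, 46.3 and 60.3 in PCC. It fell 1.78-fold in HYP (adjusted *p* = 0.0374), with -0.59 ± 0.25 on the log2 scale in PCC vs. WT (adjusted *p* = 0.102). *Id2* had 105, 63.2, 148, 144 and 299 CPM in WT, 149, 106, 205, 207 and 153 in HYP, and 117, 45.9, 62.5, 28.9 and 99.8 in PCC, and was not called in PCC vs. WT (adjusted *p* = 0.0688) or PCC vs. HYP (adjusted *p* = 0.0505). *Bmp2k*, a kinase gene first found as induced by BMP2, fell 1.71-fold in PCC vs. WT (adjusted *p* = 0.0228).

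Among the BMP calls, leaving out 1 library ended those of *Smad6* (PCC replicate 3, 4 or 5 or WT replicate 3, 4 or 5, adjusted *p* 0.06 to 0.09), *Bmp2* (PCC replicate 2, 3 or 4 or WT replicate 1 or 2, 0.0712 to 0.091), *Bmpr2* (PCC replicate 1, 2, 4 or 5 or WT replicate 3 or 5, 0.0535 to 0.0625) and *Bmp2k* (PCC replicate 1, 2 or 5 or WT replicate 4, 0.0509 to 0.0594) in PCC vs. WT. In HYP vs. WT it ended those of *Id1* (all but HYP replicate 1 and WT replicate 3, 0.0585 to 0.102), *Id3* (HYP replicate 2, 3, 4 or 5 or WT replicate 1, 2 or 3, 0.0691 to 0.104), *Bmp8a* (HYP replicate 5 or WT replicate 1, 0.0503 to 0.0618) and *Smad1* (WT replicate 4, 0.0501). In PCC vs. HYP it ended those of *Bmp7* (HYP replicate 4, 0.0513), *Gdf5* (PCC replicate 2 or 3 or HYP replicate 1, 2 or 3, 0.0533 to 0.0636) and *Amhr2* (PCC replicate 2 or HYP replicate 2, 3, 4 or 5, 0.0529 to 0.0731). Conversely, leaving out PCC replicate 1 or WT replicate 3 made *Id1* pass in PCC vs. WT (0.0161 and 0.0345), and leaving out PCC replicate 1 or WT replicate 2 made *Id2* pass (0.0386 and 0.0316). *Id2* also passed in PCC vs. HYP without PCC replicate 1 or 5 (0.0268 to 0.0382), *Bambi* in PCC vs. WT without WT replicate 4 or 5 (0.0378 to 0.0402), and *Bmp2* in HYP vs. WT without HYP replicate 2 or WT replicate 4 or 5 (0.0283 to 0.0445). Scaling to the recovered totals ended the calls of *Bmpr2* (adjusted *p* = 0.308), *Bmp2k* (adjusted *p* = 0.264) and *Bmp2* (adjusted *p* = 0.0806) in PCC vs. WT and of *Id1* (adjusted *p* = 0.0823), *Id3* (adjusted *p* = 0.104) and *Bmp8a* (adjusted *p* = 0.0546) in HYP vs. WT. With the total of the listed counts, the call of *Gdf5* in HYP vs. WT was lost (adjusted *p* = 0.0558). The recovered totals made *Bambi* (adjusted *p* = 0.0387) and *Id2* (adjusted *p* = 0.046) pass in PCC vs. HYP.

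The members too low to be tested were mostly secreted antagonists and ligands. Over the 5 samples of a group, the noggin gene *Nog* had 15 counts in WT and 73 in PCC, and the chordin gene *Chrd* 34 in WT and 215 in PCC, with 7.43 CPM in PCC replicate 4 and at most 1.36 in the other tumors. *Bmp15*, an oocyte ligand, had 5 counts in WT and 31 in PCC, and *Gdf6* 28 in WT and 1 in PCC. *Gdf7* had 28 counts in WT and 3 in HYP. *Smad9*, the least abundant BMP Smad here, had 4 counts in WT, 29 in HYP and 38 in PCC. The ratios per read, with 95% exact intervals for counting error only, were 4.03 (2.29 to 7.56) for *Nog*, 0.0295 (7.23e-04 to 0.179) for *Gdf6*, 0.111 (0.0215 to 0.358) for *Gdf7*, and 7.49 (2.63 to 29.3) in HYP and 7.86 (2.83 to 30.3) in PCC for *Smad9*.

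Of the Notch ligands *Jag2* rose, and *Jag1* and *Dlk1* were not called. The fringe gene *Mfng* and the target *Hey1* rose as well, while the Hes family genes *Hes1*, *Hes6* and *Hes7* fell. *Jag2*, a canonical Jagged ligand, had 6.59, 8.92, 4.80, 6.14 and 3.27 CPM in WT, 17.7, 15.6, 9.74, 17.7 and 22.7 in HYP, and 19.0, 56.2, 29.0, 38.7 and 25.5 in PCC. WT was below all other samples, and *Jag2* rose by 1.43 ± 0.29 on the log2 scale in HYP (adjusted *p* = 0.00624) and 2.46 ± 0.37 in PCC (adjusted *p* = 6.57e-04), with 0.91 ± 0.30 in PCC vs. HYP not called (adjusted *p* = 0.0849). *Jag1* had 6.88, 7.61, 6.12, 3.82 and 8.32 CPM in WT and 7.43, 10.5, 13.5, 12.2 and 10.1 in PCC and was not called (adjusted *p* = 0.0574, or 0.0361 without PCC replicate 1). *Dlk1*, a non-canonical Delta-like protein, had 1411, 1669.7, 1322, 802 and 429 CPM in WT, 1371, 820.5, 649, 1212 and 1319 in HYP, and 1761, 1516, 2285, 4324 and 2420 in PCC. All tumors were above all HYP samples, and neither PCC vs. WT (2.10-fold, adjusted *p* = 0.0761) nor PCC vs. HYP (2.12-fold, adjusted *p* = 0.0628) was called, although scaling to the recovered totals called both (adjusted *p* = 0.0452 and 0.038).

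*Mfng*, a glycosyltransferase that modifies Notch receptors and so alters which ligands they answer to, had 14.6, 18.9, 12.1, 7.64 and 3.84 CPM in WT, 34.6, 29.1, 14.8, 30.5 and 38.5 in HYP, and 38.0, 66.5, 64.7, 166 and 61.2 in PCC. WT replicate 5 was the lowest and PCC replicate 4 by far the highest. It rose 2.48-fold in HYP vs. WT (adjusted *p* = 0.0325), 6.67-fold in PCC vs. WT (adjusted *p* = 0.00181) and 2.47-fold in PCC vs. HYP (adjusted *p* = 0.0476). Its relative *Rfng* rose 1.48-fold in PCC vs. WT (adjusted *p* = 0.00915), within 17.8 to 23.5 CPM in WT and 26.4 to 32.2 in PCC. The receptors split. *Notch3*, the Notch receptor of mural cells, had 6.92, 9.77, 6.96, 7.14 and 5.69 CPM in WT, 13.6, 13.3, 7.67, 15.7 and 17.8 in HYP, and 7.93, 36.8, 58.6, 48.8 and 28.3 in PCC. PCC replicate 1 stayed in the WT range and the other tumors were above every HYP sample. *Notch3* rose by 0.85 ± 0.24 on the log2 scale in HYP vs. WT (adjusted *p* = 0.0299) and by 2.27 ± 0.44 in PCC vs. WT (adjusted *p* = 0.00247). Its log2 fold change of 1.29 ± 0.42 in PCC vs. HYP was not called (adjusted *p* = 0.0784), and was called without PCC replicate 1 (adjusted *p* = 0.0141). Of the 5 mural markers tested in PCC vs. WT, *Rgs5*, *Acta2* and *Pdgfrb* rose, *Kcnj8* fell and *Myh11* was not called. PCC replicate 1, low for *Notch3*, had a summed 1240 CPM of the 3 mural markers with values in all samples, beside 525 to 2229 over the tumors, and the part of these cells in the *Notch3* result was not tested. *Notch2* had 17.6, 13.7, 17.9, 11.2 and 32.6 CPM in WT, 11.6, 16.0, 15.2, 18.9 and 19.2 in HYP, and 4.97, 6.26, 13.5, 3.41 and 8.98 in PCC. It fell by 1.34 ± 0.38 on the log2 scale in PCC vs. WT (adjusted *p* = 0.018) and by 1.22 ± 0.34 in PCC vs. HYP (adjusted *p* = 0.048), with PCC replicate 3 inside the range of both other groups.

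*Hes1* and *Hes7* are shown with the sequence before their starts because RBPJ, through which Notch acts, recognises the core TGGGAA. *Hes1* is a textbook target of Notch. Of the 64 members, 52 had a promoter in the RefSeq-derived set (build GRCr8, whereas the files use Rn06), with 54 starts in all. In the 250 bases before the start, searched on both strands, the core TGGGAA occurred in 22.1% of all 33469 promoters and 2 or more times in 2.71%. The longer form GTGGGAA, which contains the core, occurred in 5.27%. Among the members, the core was found before *Bmp15*, *Cdon*, *Fstl3*, *Hes1*, *Hes7*, *Inha*, *Smad9* and *Tgfbr3l* and the longer form before *Bmp15*, *Cdon*, *Hes1*, *Hes7* and *Inha*. *Hes6* and *Heyl* were searched and had no core, while *Hey1* had no promoter in the set and was not searched. The windows around the matches are printed with the match in capitals, on the strand of the gene. The *Hes1* window is chr11:84213129-84213188 on the minus strand, with 2 cores in the same orientation. *Hes7* has 2 starts, with windows chr10:54322928-54322970 and chr10:54324207-54324253 on the plus strand, and the second match reads TTCCCAC because it lies on the opposite strand.
Hes1: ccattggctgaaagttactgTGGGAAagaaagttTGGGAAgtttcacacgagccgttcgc
Hes7, first start: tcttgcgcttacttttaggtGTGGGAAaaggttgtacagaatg
Hes7, second start: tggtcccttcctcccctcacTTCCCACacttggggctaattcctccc
A match is a description of these letters and no evidence of binding.

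*Hes1*, the repressor whose window is printed above, had 51.4, 52.7, 30.0, 33.6 and 21.1 CPM in WT, 26.2, 17.5, 16.6, 22.5 and 22.0 in HYP, and 9.98, 10.3, 15.2, 6.91 and 20.6 in PCC. All tumors were below all WT samples, although PCC replicate 5 came close to WT replicate 5. *Hes1* fell by 0.91 ± 0.25 on the log2 scale in HYP vs. WT (adjusted *p* = 0.0275) and by 1.64 ± 0.35 in PCC vs. WT (adjusted *p* = 0.00449). *Hes6*, a family member that opposes Hes1 and promotes neuronal differentiation, had 273, 261, 181, 110.2 and 146 CPM in WT, 117, 42.3, 93.8, 88.2 and 75.1 in HYP, and 23.8, 22.8, 40.0, 32.2 and 73.4 in PCC. It fell 2.43-fold in HYP (adjusted *p* = 0.013) and 5.24-fold in PCC (adjusted *p* = 9.37e-04) relative to WT, and 2.31-fold in PCC vs. HYP was not called (adjusted *p* = 0.0557). *Hes7*, known as an oscillator of somite formation, had 21.1, 19.7, 9.495, 6.89 and 1.35 CPM in WT, 5.26, 1.70, 2.90, 2.61 and 3.09 in HYP, and 0.866, 1.60, 1.31, 2.13 and 2.49 in PCC, and fell 3.93-fold in HYP (adjusted *p* = 0.0343) and 7.30-fold in PCC (adjusted *p* = 0.00547). Its WT values spanned 1.35 to 21.1, with replicate 5 alone inside the range of the tumors. *Hey1*, a Notch-induced repressor of another family, went the opposite way with 1.64, 1.56, 1.06, 0.939 and 0.213 CPM in WT, 2.28, 4.28, 3.42, 3.37 and 3.84 in HYP, and 3.42, 6.12, 3.18, 3.26 and 4.42 in PCC. No WT sample reached the others, and *Hey1* rose 3.00-fold in HYP (adjusted *p* = 0.0163) and 3.59-fold in PCC (adjusted *p* = 0.00984). *Heyl*, related to *Hey1*, had 6.25, 11.5, 5.96, 8.76 and 4.05 CPM in WT and 7.38, 16.6, 18.3, 13.9997 and 13.3 in PCC. It was not called (adjusted *p* = 0.0685), and was without PCC replicate 1 (adjusted *p* = 0.0256) or WT replicate 2 (adjusted *p* = 0.029).

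Of the Mastermind co-activators, *Maml1* fell 1.51-fold in PCC vs. WT (adjusted *p* = 0.00856) and *Maml2* rose 1.82-fold in HYP vs. WT (adjusted *p* = 0.0325). The Notch inhibitor *Numbl* had 6.54 to 26.3 CPM in WT and 25.1 to 40.1 in PCC and was not called (adjusted *p* = 0.0545), and was without PCC replicate 1, WT replicate 2 or WT replicate 5 (adjusted *p* 0.0222 to 0.0499). Leaving out 1 library ended the calls in HYP vs. WT of *Mfng* (HYP replicate 5 or WT replicate 3 or 4, adjusted *p* 0.0603 to 0.0791), *Notch3* (HYP replicate 2, 4 or 5 or WT replicate 1, 3 or 4, 0.0541 to 0.0768), *Hes1* (HYP replicate 2 or WT replicate 1 or 2, 0.0578 to 0.0659), *Hes7* (HYP replicate 2, 3, 4 or 5 or WT replicate 1, 2 or 3, 0.0526 to 0.0817) and *Maml2* (all but HYP replicate 1 and WT replicates 3 and 5, 0.0532 to 0.0984). In PCC vs. HYP it ended those of *Mfng* (all but PCC replicates 1 and 5, 0.0721 to 0.117) and *Notch2* (all but PCC replicates 3 and 5, 0.0527 to 0.11), and it brought *Hes6* under the threshold without PCC replicate 5 (0.00727) or HYP replicate 2 (0.0458). Scaling to the recovered totals ended the calls of *Notch2* (adjusted *p* = 0.084) and *Maml1* (adjusted *p* = 0.231) in PCC vs. WT, of *Notch2* in PCC vs. HYP (adjusted *p* = 0.12), and of *Hes1* (adjusted *p* = 0.153) and *Hes7* (adjusted *p* = 0.07) in HYP vs. WT. With the total of the listed counts, the call of *Hes6* in HYP vs. WT was lost (adjusted *p* = 0.111). The recovered totals made *Jag1* (adjusted *p* = 0.0178), *Heyl* (adjusted *p* = 0.0338) and *Numbl* (adjusted *p* = 0.0305) pass in PCC vs. WT.

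**Figure D4:**
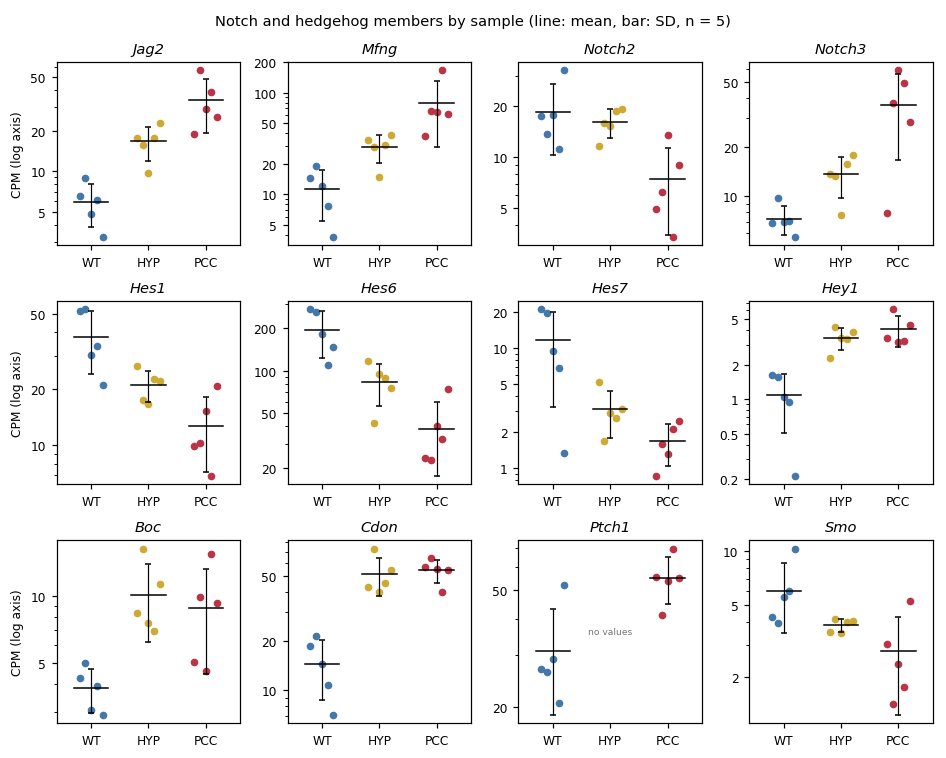
CPM (log axis) of 12 Notch and hedgehog members in each sample, by group; points are samples, lines the means and bars the SD (n = 5). *Jag2*, *Mfng*, *Hey1* and *Cdon* are higher in HYP and PCC than in WT, the Hes genes are lower, and *Ptch1* has no HYP values.

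In the hedgehog pathway the co-receptors *Cdon* and *Boc* rose already in HYP, *Ptch1* and *Gli2* rose in PCC, and *Smo* fell. *Cdon*, a cell-surface protein that helps present hedgehog ligand, had 18.7, 21.5, 14.4, 10.8 and 7.11 CPM in WT, 42.7, 73.1, 39.6, 45.2 and 53.9 in HYP, and 56.6, 63.9, 54.9, 39.5 and 54.0 in PCC. HYP and PCC overlapped and both lay above WT, with log2 fold changes of 1.75 ± 0.29 in HYP (adjusted *p* = 0.00236) and 1.84 ± 0.30 in PCC (adjusted *p* = 0.0011). *Boc*, a related co-receptor, rose 2.52-fold in HYP (adjusted *p* = 0.00734) and 2.24-fold in PCC (adjusted *p* = 0.0296), from 2.92 to 4.99 CPM in WT to 6.91 to 16.3 in HYP and 4.58 to 15.4 in PCC. *Smo*, the transducer that Patched restrains, had 4.28, 3.98, 5.54, 6.01 and 10.3 CPM in WT, 3.55, 4.17, 3.48, 4.01 and 4.09 in HYP, and 3.05, 1.41, 2.34, 1.75 and 5.28 in PCC. It fell 2.18-fold in PCC vs. WT (adjusted *p* = 0.0425), and 1.61-fold in HYP vs. WT was not called (adjusted *p* = 0.111).

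*Ptch1* encodes the hedgehog receptor and is itself a target of Gli factors, so the letters before its start are shown. The GLI consensus GACCACCCA occurred in the 250 bases before the start of 0.338% of all promoters on either strand, and *Ptch1* was the 1 member with a match. The window is chr17:1555379-1555427 (GRCr8, plus strand). The match lies on the opposite strand, at 172 to 164 bases before the start, so that the printed strand reads TGGGTGGTC.
Ptch1: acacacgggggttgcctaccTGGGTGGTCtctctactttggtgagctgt
*Ptch1* had 27.0, 26.3, 29.2, 20.6 and 52.3 CPM in WT and 55.5, 41.3, 53.7, 69.5 and 55.0 in PCC, and no HYP values were analysed. WT replicate 5 stood within the tumor range, above the other WT samples, and *Ptch1* rose by 0.81 ± 0.22 on the log2 scale (adjusted *p* = 0.0154). *Gli2*, the Gli factor with a row, had 0.481, 0.302, 0.475, 0.125 and 0.284 CPM in WT, 0.380, 0.274, 0.193, 0.755 and 0.299 in HYP, and 0.547, 2.09, 1.96, 3.93 and 0.558 in PCC. PCC replicates 1 and 5 were near the highest WT sample and the other tumors 4 or more times higher than it. *Gli2* rose by 2.37 ± 0.61 on the log2 scale over WT (adjusted *p* = 0.0118) and by 2.11 ± 0.59 over HYP (adjusted *p* = 0.049). *Hhip*, a decoy of hedgehog ligands and a pathway target, was too low to be tested. It had 0.127, 1.04, 0.645, 1.05 and 2.84 CPM in HYP and 0.319, 0.243, 0.281, 0.0473 and 0.430 in PCC, from 106 and 29 counts, which is a ratio of 0.219 with a 95% exact interval of 0.14 to 0.333 for counting error only. The palindrome GTCTAGAC, a Smad3 and Smad4 site, occurred in 0.173% of all promoters and in none of the members', which says only that these letters are not in these windows.

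Leaving out 1 library ended the PCC vs. WT calls of *Smo* (all but PCC replicate 5 and WT replicates 1 and 2, adjusted *p* 0.0618 to 0.103) and *Boc* (PCC replicate 2 or 4 or WT replicate 3, 4 or 5, 0.0596 to 0.0757) and the PCC vs. HYP call of *Gli2* (all but PCC replicates 1 and 5, 0.0668 to 0.134). With the recovered totals, the call was also lost for *Smo* in PCC vs. WT (adjusted *p* = 0.15).

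**Figure D5:**
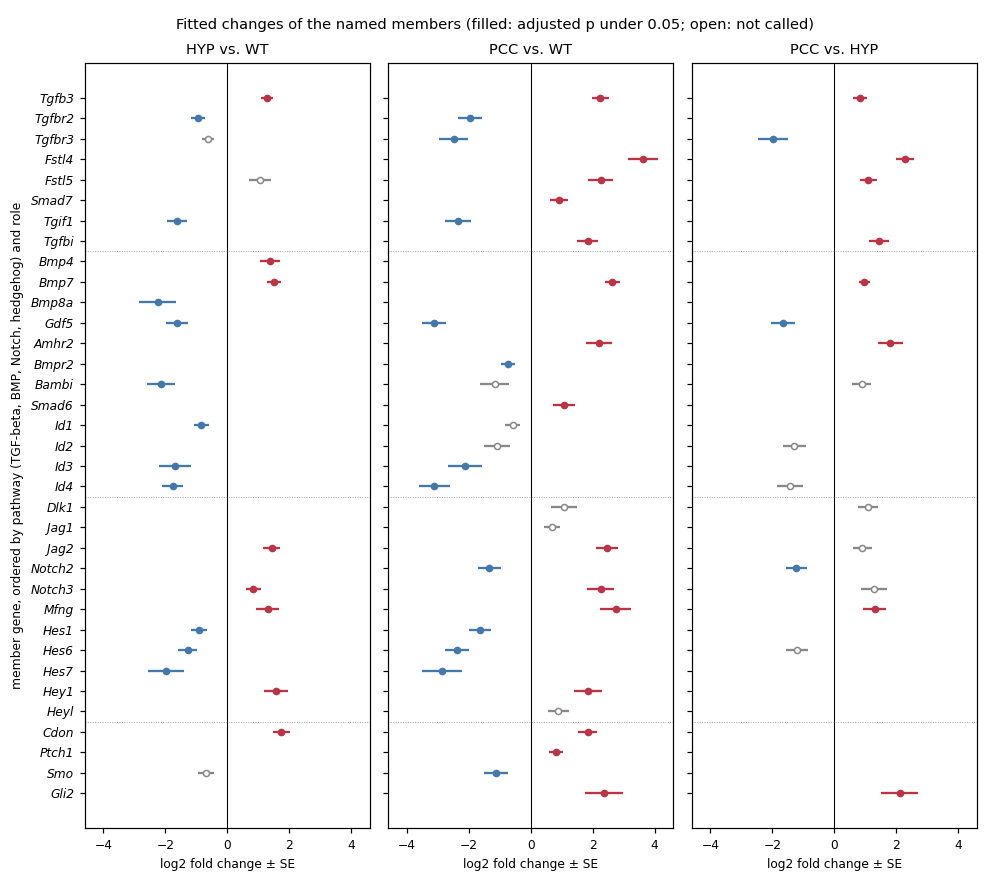
Fitted log2 fold change with its SE (horizontal bars) of the named members in the 3 comparisons; filled points passed an adjusted *p* of 0.05 and open points did not, and a missing point is a gene not listed or too low to be tested. *Bmp7*, *Tgfb3* and *Mfng* are right of 0 and *Gdf5* left of 0 in all 3 panels.

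Other genes of the same pathways, from lists that did not overlap the members, are given for context. Of 43 further TGF-beta and BMP genes, 21 were listed in PCC vs. WT, where 10 of the 20 tested rose and 7 fell. *Rgmb*, a BMP co-receptor, rose by 2.14 ± 0.25 on the log2 scale over WT (adjusted *p* = 1.95e-04). *Ltbp1*, which tethers latent TGF-beta to the matrix, fell by 1.67 ± 0.36 (adjusted *p* = 0.00474) and the Smad co-repressor *Skil* by 1.32 ± 0.22 (adjusted *p* = 0.00116). In HYP vs. WT 4 of 12 rose and 5 fell, and in PCC vs. HYP 3 of 10 rose and 1 fell. Of 38 further Notch genes, 8 of the 13 tested rose and 4 fell in PCC vs. WT, 4 and 4 of 9 in HYP vs. WT, and 1 and 0 of 4 in PCC vs. HYP. *Cntn1*, a contactin proposed as a Notch ligand, rose by 3.57 ± 0.56 in PCC vs. WT (adjusted *p* = 8.50e-04) and by 2.73 ± 0.30 in HYP vs. WT (adjusted *p* = 3.07e-04). The gamma-secretase subunit *Psenen* fell by 0.92 ± 0.15 (adjusted *p* = 8.91e-04) in PCC vs. WT. Of 33 further hedgehog genes, 9 of 15 rose and 2 fell in PCC vs. WT, 5 and 0 of 6 in HYP vs. WT, and 3 and 2 of 7 in PCC vs. HYP. *Scube1*, of a secreted family of which some members aid hedgehog release, rose by 3.56 ± 0.34 in HYP vs. WT (adjusted *p* = 1.82e-04) and 4.86 ± 0.41 in PCC vs. WT (adjusted *p* = 8.08e-05), and the ciliary kinesin *Kif7* by 1.37 ± 0.22 in PCC vs. WT (adjusted *p* = 0.00102). *Hhat*, the acyltransferase that lipidates hedgehog ligands, fell by 1.91 ± 0.31 in PCC vs. WT (adjusted *p* = 9.63e-04). These counts stand beside 85.2% of all genes called in PCC vs. WT, 72.1% in HYP vs. WT and 44.4% in PCC vs. HYP, and the median log2 fold changes in PCC vs. WT were 0.67, 0.54 and 0.85 for the 3 lists beside 0.44 for all genes. The named examples were chosen after their values were seen.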

How the data were processed

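The libraries came from 15 rats. Per the labels and the study's methods, poly-A RNA was sequenced in pairs, mapped to Rn06 with HISAT2 2.0.5 and counted with featureCounts 1.5.0-p3, and groups were compared pairwise with DESeq2. The authors deposited 3 tables of the genes they had called, with raw read counts, normalized signal (counts divided by a size factor), FPKM and gene length; the authors' p-values and adjusted p-values were used only to recover how many genes they had tested (18790, 18057 and 17454), and their fold changes were not used. No strand setting is given in the sources used here, so overlapping and antisense genes could share reads.

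The deposited counts were fitted in R 4.3.3 with edgeR 4.0.16: TMM over the listed genes, filterByExpr, glmQLFit and glmQLFTest per pair of groups. *P*-values were adjusted after Benjamini and Hochberg over those recovered gene numbers, and the SE is the log2 fold change divided by the square root of F. CPM used 1 TMM scale over the 5492 genes with all samples and the totals recovered from counts, FPKM and length, so that ratios of CPM differ slightly from fitted folds. Listed genes held 50.9% to 62.0% (PCC vs. WT), 26.2% to 37.3% (HYP vs. WT) and 19.3% to 27.9% (PCC vs. HYP) of the reads. The fit was tested on simulated data; with 50 genes per fold size, it called 84.0% of 4-fold higher, 28.0% of 2-fold higher, 72.0% of 0.25-fold and 20.0% of 0.5-fold genes in PCC vs. WT, 100.0%, 40.0%, 90.0% and 28.0% in HYP vs. WT, and 76.0%, 26.0%, 66.0% and 30.0% in PCC vs. HYP.

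Genes named are the 10 called members with the largest change in each comparison and a mean of at least 1 CPM in a group, and a fixed list of core members. Other members are given by role, and those among them with values in every sample were picked after their values were seen. The members and lists were chosen with earlier results of these data known. Alternatives were DESeq2 1.42.0, 3 other scalings, 2 other filters, another adjustment, 1 fit over all 15 samples, a replicate block and leave-one-out. Motifs were searched with Python 3.11.15 in RefSeq-derived promoters of GRCr8, and figures were made with matplotlib 3.10.9. A few genes are counted in the totals and not reported here by name.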

Additional observations from a re-analysis of the deposited data

Results flagged for a closer look

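In 5 of 101 groups of 5 samples tested over the 37 named members, 1 sample stood apart from the other 4 by Dixon's test, and chance flags about 1 in 20 groups. *Id1* was 77.5 CPM in HYP replicate 1 beside at most 46.5 in the other HYP samples, and *Tgif1* was 27.4 CPM in the same sample beside at most 15.9. *Id3* was 129.8 CPM in PCC replicate 5 beside at most 64.3 in the other tumors. *Mfng* was 166 CPM in PCC replicate 4 beside at most 66.5, and *Ptch1* was 52.3 CPM in WT replicate 5 beside at most 29.2. Without that sample, the calls of *Id1* and *Tgif1* in HYP vs. WT, *Id3* and *Ptch1* in PCC vs. WT and *Mfng* in PCC vs. WT remained, and the call of *Mfng* in PCC vs. HYP was lost (adjusted *p* = 0.0721).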

How the results depend on the processing

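Calls in PCC vs. HYP depended most on the processing. The 13 called members became 8 with at least 10 counts in every sample, 23 when adjusted over the listed genes and 20 with DESeq2, and the cause was not tested. Leaving out 1 library gave 3 (HYP replicate 3) to 17 (PCC replicate 5) there, 36 to 46 in PCC vs. WT and 19 to 29 in HYP vs. WT. The calls kept in all such fits were 32 of 43, 17 of 27 and, in PCC vs. HYP, 2 of 13 (*Fstl4* and *Smurf2*). Of the other TGF-beta and BMP genes, the 4 called in PCC vs. HYP became 10 adjusted over the listed genes and 7 with DESeq2, and 2 to 5 without 1 library; the 9 in HYP vs. WT became 5 to 12. The 8 other Notch genes in HYP vs. WT became 5 with the total of the listed counts and 5 with 1 fit over all samples, and 4 to 9 without 1 library. In PCC vs. HYP 1 became 2 with the authors' size factors, the total of the listed counts, the recovered totals or 1 fit, 4 adjusted over the listed genes and 3 with DESeq2, and 0 to 3 without 1 library. The 5 other hedgehog genes in PCC vs. HYP became 1 to 6.

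With the replicate block, 33 members were called in PCC vs. WT, 19 in HYP vs. WT and 1 in PCC vs. HYP, and in PCC vs. HYP 1 other TGF-beta and BMP gene, 0 other Notch genes and 1 other hedgehog gene. Groups hold different animals, and same-numbered samples' deviations correlated at -0.13 to 0.18, -0.11 to 0.26 and -0.24 to 0.25, so the numbers do not pair the samples. Of 74 log2 fold changes of named members, the block ended 24 calls and added 1, and DESeq2 added 11 and ended 0. None of the called changes turned direction under any alternative run. Low members are limited by depth, as their counts show.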
